A study of Homo sapiens with 12 samples.

Results

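This section describes 8 of the 12 expression arrays of a study of MDA-MB-231, an established human cell line from a metastatic breast carcinoma that lacks the oestrogen receptor. The 4 arrays of cells overexpressing Sharp1 were compared with the 4 arrays of control cells, chosen by their titles, and all 19775 genes named by the array's annotation were read. The control (shGFP) expressed, from a retrovirus, a hairpin directed at GFP. The labels give no vector, dose or matched empty vector for the Sharp1 cells, so the overexpressing cells differ from the control both in Sharp1 and in the construct they carry, and these cannot be told apart. The remaining 4 arrays (shHIF) came from cells depleted of HIF1a and HIF2a by retroviral hairpins and enter below as a further level beside the control. All cells grew untreated in serum-containing medium, and replicates are lettered A to D. The labels call them biological without saying whether they came from separate cultures or infections, so each p-value speaks only of how far these arrays scatter.

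Sharp1, also called DEC2, is the product of BHLHE41. It is a transcriptional repressor of the basic helix-loop-helix family with an Orange domain, and it binds DNA as a dimer at the palindromic E-box CACGTG. In the circadian clock it opposes the CLOCK and BMAL1 activators, which use the same site, and it acts in a feedback loop on its own gene and on that of its relative Sharp2 (BHLHE40). In breast cancer it is known as a suppressor of metastasis that lowers HIF proteins, and the series title names that question. A change in HIF protein would not itself be visible on these arrays, which measure transcripts.

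Overexpression was read on the 4 probe sets of BHLHE41. On the probe set with the largest difference, control arrays A to D read 3.94, 3.95, 3.82 and 3.83 and Sharp1 arrays A to D read 9.56, 8.87, 9.30 and 9.22 (log2 signal). The groups did not overlap, and Sharp1 array B was the lowest of its group. The difference was 5.35 (SE 0.12), or 40.9-fold. Another probe set rose by 1.59 (SE 0.14) and the last differed by -0.13 (limma adjusted p = 0.442). The probe set brightest in control cells moved the other way, from 6.41, 6.63, 6.56 and 6.88 in control to 4.33, 4.63, 4.59 and 4.69 in Sharp1 cells, a fall of 2.06 (SE 0.11, limma adjusted p = 8.31e-13 over all probe sets). Probe sets of a gene read different stretches of its transcript, and the files do not say which stretch the construct holds. BHLHE40 fell by 0.51 on its brighter probe set (SE 0.07, limma adjusted p = 1.46e-05), from 9.20 ± 0.05 to 8.69 ± 0.15 (log2, SD, n = 4), and its other probe set differed by -0.22 (limma adjusted p = 0.113).

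These cultures were read in bulk, so fewer cells making a transcript and less transcript in each cell cannot be told apart. The array medians of the 8 arrays lay between 5.39 and 5.44. Signal of the ribosomal RNA control probe sets was 10.7 on Sharp1 array B and between 11.3 and 11.6 on the other 7 arrays, and spike-in signal lay between 10.7 and 10.8 on all 8. Counts that rest on Sharp1 array B are given without it in the closing section.

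Of 19775 genes tested, limma called 3027 higher (15.3%) and 2343 lower (11.8%) in Sharp1 cells, 27.2% together, at an adjusted p under 0.05. Most of these changes were small. Of the called genes, 35.5% differed by under 0.25 on the log2 scale and a further 41.7% by 0.25 to 0.5, whereas 333 genes (1.68% of those tested) differed by at least 2-fold. At that size the balance turned, with 141 genes higher (0.713%) and 192 lower (0.971%). The groups did not overlap for any of these 333, and for 28.9% of all genes. The 333 were chosen by size and adjusted p on the same arrays, so their separation comes with the choice and adds no support. It holds likewise for the array values given below for genes of this size. Beyond 4-fold, 14 genes were higher and 28 lower. The 2-fold rises began from a median of 6.80 and reached 8.16, and 62 of them lay under the median gene in control cells, while the 2-fold falls went from 8.0 to 6.36 and only 30 began under it. Genes read on several probe sets had a second probe set called the same way in 82 of 96 rises and 101 of 126 falls, and an opposite call on another probe set in 0 rises and 1 fall. Each gene is given by the probe set with the highest mean, and where leaving out probe sets that can match several transcripts (IDs ending in _x_at or _s_at) ended a call below, the value from the other probe set stands beside it. That other probe set is termed more specific by its ID alone, and it can miss a change. For BHLHE41 it read 3.17 in control cells and differed by -0.13, while another probe set rose 40.9-fold. Protein-coding genes were called in 30.7% of cases and long non-coding RNAs in 8.20%. Calls were more frequent among brighter genes. Of 8258 genes with a listed promoter at or above the median control level, 1628 were called lower and 2127 higher. Of 7126 under it, 290 were called lower and 357 higher. The 27.2% of all genes set beside the lists below is therefore not matched for level.

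**Figure D1:**
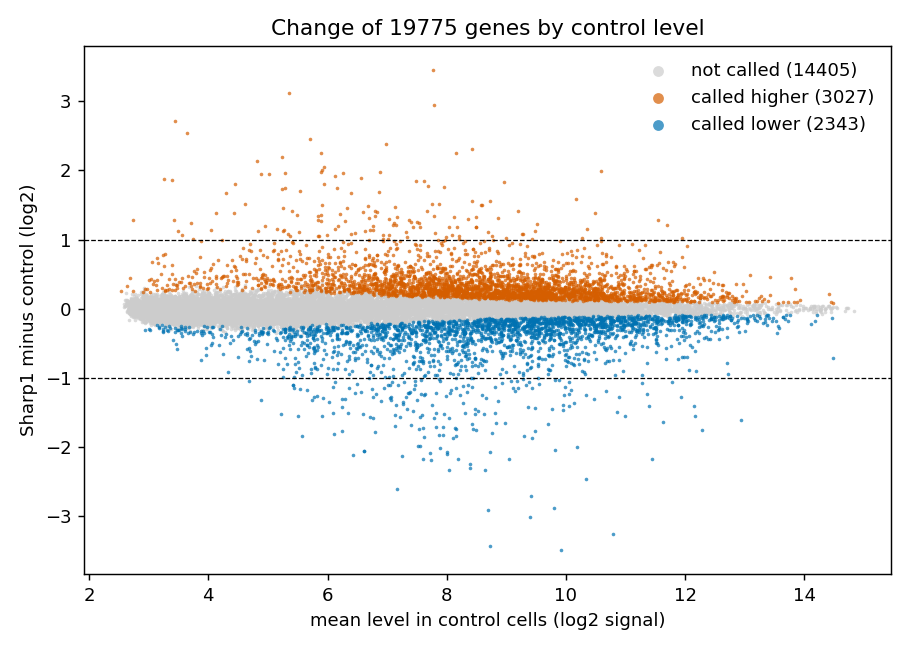
Difference between Sharp1 and control cells (vertical axis, log2) against the mean level in control cells (horizontal axis, log2 signal) for 19775 genes, 1 point each. Called rises are orange, called falls blue and genes not called grey, and dashed lines mark a 2-fold difference. The largest falls start from brighter genes than the largest rises.

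Because Sharp1 is known to bind CACGTG, the promoters of the changed genes were searched for this motif, which reads the same on both strands. RefSeq promoters (GRCh38.p14, 250 bases before to 50 after the gene start, the first listed for each gene) were matched by symbol for 15384 of the 19775 genes. CACGTG was present in 8.90% of these promoters. Among genes that fell at least 2-fold it was present in 30 of 145 promoters, or 20.7% (exact 95% binomial interval 14.4 to 28.2, counting error only), and among genes that rose at least 2-fold in 5 of 105, or 4.76% (interval 1.56 to 10.8). The 30 include BHLHE41 itself, which is counted as a fall through its probe set brightest in control cells although another of its probe sets rose 40.9-fold. Among all called genes the shares were 17.8% of 1918 falls and 7.33% of 2484 rises, beside 7.69% of 10982 genes not called. Genes with the motif were called lower in 25% of cases and higher in 13.3%, and genes without it in 11.2% and 16.4%. No test was made of these shares, since neighbouring and related genes are not independent.

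By size of change, the share holding CACGTG was 20.7% for falls of 1 or more on the log2 scale, 19.3% for falls of 0.5 to 1, 18.7% for falls of 0.25 to 0.5 and 15.5% for smaller called falls. For rises it was 8.35% below 0.25 and 6.93%, 6.52% and 4.76% in the larger classes. Level differed between these sets as well, with a median control level of 8.05 for the falls of 1 or more, 5.78 for genes not called and 6.88 for rises of 1 or more. Among genes at or above the median control level only, the shares were 18.7% for falls, 7.90% for rises and 9.28% for genes not called. Palindromes with the same core and other outer bases were counted in the same windows. GACGTC was present in 7.09% of called falls, 7.93% of called rises and 6.56% of all promoters, and AACGTT in 2.09%, 1.81% and 1.86%. The shorter core ACGTG or GCGTG on either strand, which overlaps CACGTG and is the core of the HIF response element, was present in 67.7% of called falls, 56.8% of called rises and 56.4% of all promoters. For 2-fold falls that core was present in 54.5%.

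**Figure D2:**
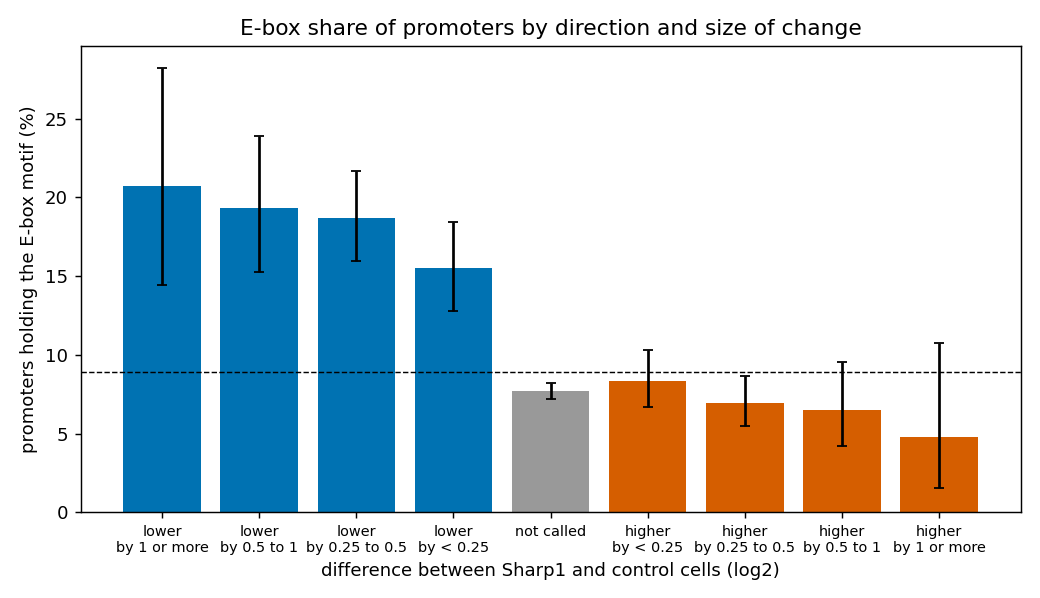
Share of promoters holding CACGTG (vertical axis, percent) by direction and size of the difference between Sharp1 and control cells (horizontal axis, log2 classes). Bars start at 0, error bars are exact 95% binomial intervals, and the dashed line is the share of all promoters of tested genes, 8.90%. All classes of called falls lie above the line and all classes of called rises below it.

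The same count was made for HIF depletion. Of genes that fell at least 2-fold in shHIF cells against the same controls, 6 of 67 promoters (8.96%) held CACGTG, and of called falls of any size 8.80%. Of called rises of any size in shHIF cells 12.2% held it. Sharp1 cells were also set directly against shHIF cells. The control mean does not enter that difference, but the Sharp1 arrays are the same and the spread was estimated over all 12 arrays. Genes lower by at least 2-fold in Sharp1 cells then held CACGTG in 27 of 168 promoters (16.1%). Genes higher by at least 2-fold held it in 10 of 205 (4.88%).

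The sites are shown for the 6 falls and the 6 rises with the largest change among genes that hold CACGTG before their start, with the E-box in capitals and 20 bases on each side, 5′ to 3′ on the strand of the gene. The falling genes come first.
SLCO4A1-AS1 (chr20:62666722-62666767, minus strand): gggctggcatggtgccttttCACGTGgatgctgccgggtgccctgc
ARMCX1 (chrX:101550498-101550543, plus strand): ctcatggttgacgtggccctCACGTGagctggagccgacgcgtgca
ARHGAP12 (chr10:31928880-31928925, minus strand): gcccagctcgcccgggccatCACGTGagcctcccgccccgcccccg
LYPD1 (chr2:132671704-132671749, minus strand): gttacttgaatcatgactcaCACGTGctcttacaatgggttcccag
BHLHE41 (chr12:26125060-26125105, minus strand): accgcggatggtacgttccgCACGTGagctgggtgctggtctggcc
AKAP12 (chr6:151239854-151239899, plus strand): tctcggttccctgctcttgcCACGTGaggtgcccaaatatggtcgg
The rising genes with the motif follow.
ADAMTS6 (chr5:65481958-65482003, minus strand): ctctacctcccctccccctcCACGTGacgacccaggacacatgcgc
PGCKA1 (chr4:37453855-37453900, plus strand): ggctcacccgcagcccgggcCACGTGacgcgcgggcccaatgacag
SMAD9 (chr13:36920391-36920436, minus strand): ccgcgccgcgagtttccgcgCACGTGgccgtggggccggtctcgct
TNFAIP3 (chr6:137867161-137867206, plus strand): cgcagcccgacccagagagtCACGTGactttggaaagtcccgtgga
GCNA (chrX:71578350-71578395, plus strand): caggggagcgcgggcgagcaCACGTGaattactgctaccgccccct
DUSP1 (chr5:172771278-172771323, minus strand): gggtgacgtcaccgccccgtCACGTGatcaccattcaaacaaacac

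In ARMCX1 and ARHGAP12 the first base of the motif lay 29 bases before the gene start, in BHLHE41 48 and in AKAP12 93 bases before it. ARMCX1, a mitochondrial outer membrane protein of the armadillo repeat family, read 10.43, 10.28, 10.31 and 10.36 in control arrays and 7.78, 7.80, 7.96 and 7.99 in Sharp1 arrays, a 5.51-fold fall with an adjusted p of 1.41e-20 in limma. The groups did not overlap, and no array stood apart. AKAP12, a scaffold of protein kinase A and C, fell 4.14-fold, and 4 of its 5 probe sets were called lower. Other 2-fold falls whose promoter held the motif were BNIP3, a mitophagy receptor (-1.75), GNPDA1, of hexosamine breakdown (-1.77), INSIG1, which holds back sterol synthesis (-1.41), CTSD, a lysosomal protease (-1.33), KLF4 (-1.17) and MAPK12, a p38 kinase (-1.11). Smaller called falls with the motif included BHLHE40 and, in the cell cycle list, CCNG2, CDK4 and CDK8. In this window 115 of the 145 promoters of 2-fold falls did not hold the motif. A match of these letters describes the sequence and does not show binding.

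Secreted mucosal proteins were among the deepest falls. TFF2, a trefoil peptide that protects mucous epithelia, read 9.94, 9.81, 9.59 and 10.29 in control and 6.13, 6.46, 6.58 and 6.49 in Sharp1 arrays. Every Sharp1 array lay more than 2 log2 units under every control array, and the fall of 3.49 (SE 0.11) was the largest of any gene tested. Its neighbours on chromosome 21, TFF1 and TFF3, fell by 2.61 and 1.71, and AGR2, a disulfide isomerase that folds secreted mucins, fell by 3.01. The lysozyme gene LYZ fell by 1.26. Of the 42 measured trefoil, mucin and mucosal secretory genes, 5 fell and 2 rose, DMBT1 (1.25) and CLU (0.39), and 35 did not pass. The 16.7% called stands beside 27.2% of all genes, but the list was dim. Its median control level was 4.95, beside 6.58 for all genes. MAL2, a protein of transport to the apical membrane, and the water and glycerol channel AQP3 fell by 2.07 and 1.83.

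Some of the large falls were neighbours on a chromosome. Runs of at least 3 adjacent tested protein-coding genes that were all called the same way, each by at least 0.5 on the log2 scale, numbered 6, of which 5 fell. In the S100 cluster on chromosome 1, S100A6, S100A5, S100A4, S100A3 and S100A2, which encode small calcium-binding proteins, fell by 0.72, 0.62, 1.61, 1.18 and 2.17. S100A4, known for its link to metastasis, read 12.95, 12.80, 12.90 and 13.07 in control and 11.17, 11.39, 11.34 and 11.39 in Sharp1 arrays, so it remained a bright transcript. On chromosome 21, TFF3, TFF2 and TFF1 stood beside the cholesterol exporter ABCG1 (-0.80). On chromosome 10, the aldo-keto reductases AKR1C1, AKR1C2 and AKR1C3, which reduce steroids and prostaglandins, fell by 1.26, 1.27 and 1.84, and on chromosome 20 the cystatins CST4, CST1 and CST2, inhibitors of cysteine proteases, fell by 1.66, 1.31 and 0.55. The AKR1C genes, and likewise the cystatins, are near-identical copies whose probe sets can share signal, so the separate values of the members are uncertain. Without probe sets that can match several transcripts, AKR1C1 and AKR1C2 each differed by -0.08 and ABCG1 by -0.04. The further runs were BCL2L11, MERTK and TMEM87B, lower, and RHOBTB3, GLRX and ELL2, higher. By chromosome, the share of genes called ranged from 22.2% on chromosome 22 to 30.4% on chromosome 18, and the median difference lay between -0.033 and 0.017.

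**Figure D3:**
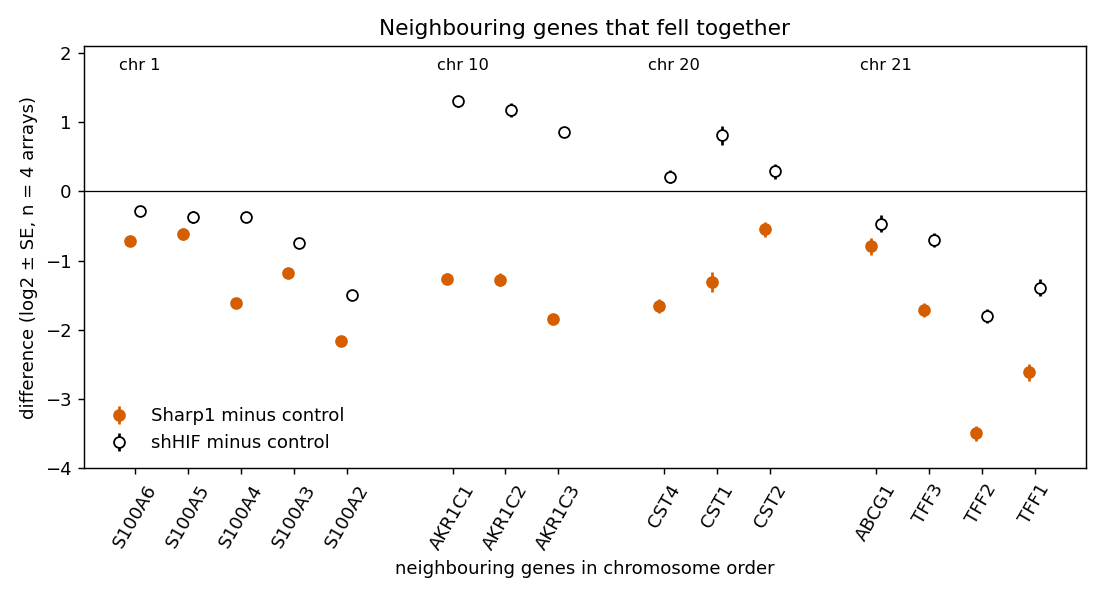
Differences of neighbouring genes in 4 runs on chromosomes 1, 10, 20 and 21 (vertical axis, log2, points with SE, n = 4 arrays a group), for Sharp1 minus control (filled) and shHIF minus control (open). All 15 Sharp1 values lie under 0. In shHIF cells the AKR1C genes lie above 0 while the S100 and trefoil genes lie under it.

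In shHIF cells, which were set against the same controls, TFF1, TFF2 and TFF3 fell by 1.39, 1.80 and 0.70, whereas AKR1C1, AKR1C2 and AKR1C3 rose by 1.30, 1.17 and 0.86 and CST1 rose by 0.81. Set directly against shHIF cells, AKR1C3 was lower by 2.69 in Sharp1 cells (SE 0.06, limma adjusted p = 1.34e-21).

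Extracellular matrix genes rose more often than they fell. Of 83 matrix glycoproteins, 27 rose and 9 fell, 12 and 3 of them by at least 2-fold, and 43.4% were called against 27.2% of all genes. FBN1, the main protein of elastic microfibrils, read 8.98, 8.90, 8.96 and 9.02 in control and 10.79, 10.73, 10.80 and 10.87 in Sharp1 arrays. ABI3BP, a matrix protein that binds the collagens, rose by 2.45, osteopontin, SPP1, by 1.86 from a dim 3.39, and fibronectin, FN1, by 1.21. MATN2 and MATN3, which link matrix filaments, rose by 1.55 and 1.23, EFEMP1 by 1.38, ECM1 by 1.34 and CTHRC1 by 1.19. On its more specific probe set MATN2 differed by -0.09. The falls were led by TGFBI (-2.34), CCN3 (-2.10) and IGFBP4 (-1.23), secreted proteins that bind integrins or growth factors. Among 43 collagens, 12 rose and 3 fell (34.9%). COL5A2 and COL11A1, fibril-forming chains, rose by 1.95 and 1.51, and the basement membrane chains COL4A1 and COL4A2, which lie side by side in the genome, by 1.13 and 1.03, while COL6A1 fell by 1.67. Of 42 proteoglycan and hyaluronan genes, 13 rose and 4 fell (40.5%). The hyaluronan synthase HAS2 and the hyaluronan receptor CD44 rose by 1.18 and 0.90. CEMIP, which degrades hyaluronan, fell by 1.99 (-0.07 on its more specific probe set).

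Actin genes leaned upward. Of 62 genes of actin filaments and their smooth muscle regulators, 30 rose and 5 fell, 56.5% called, and the median member differed by 0.13 against 0.00 for all genes. Only TAGLN, an actin bundler known from smooth muscle, passed 2-fold (1.76). CSRP1 rose by 0.98, the myosin light chain MYL9 by 0.54, tropomyosins TPM1 and TPM2 by 0.54 and 0.40, and calponin CNN1 by 0.51. On more specific probe sets TAGLN differed by 0.10, MYL9 by 0.23, TPM1 by 0.09 and TPM2 by -0.10. MARCKSL1 fell by 0.79 and FSCN1, which bundles actin in invasive protrusions, by 0.57. The median actin gene read 10.6 in control cells.

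Proteases and their inhibitors changed in both directions. Of 154 extracellular and surface proteases, 26 rose and 16 fell, which is 27.3% against the 27.2% of all genes. PAPPA, which cleaves insulin-like growth factor binding proteins, rose by 2.39, and the aggrecanases and relatives ADAMTS6 and ADAMTS5 by 1.56 and 1.06. MMP16, CTSD and MMP1 fell by 2.05, 1.33 and 1.28. Of 72 inhibitors, 10 rose and 11 fell (29.2%). SPINK1 was at 2.54 and SERPINB7 at 1.96, and CST4, TIMP3 and TIMP4 were at -1.66, -1.40 and -1.40.

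**Figure D4:**
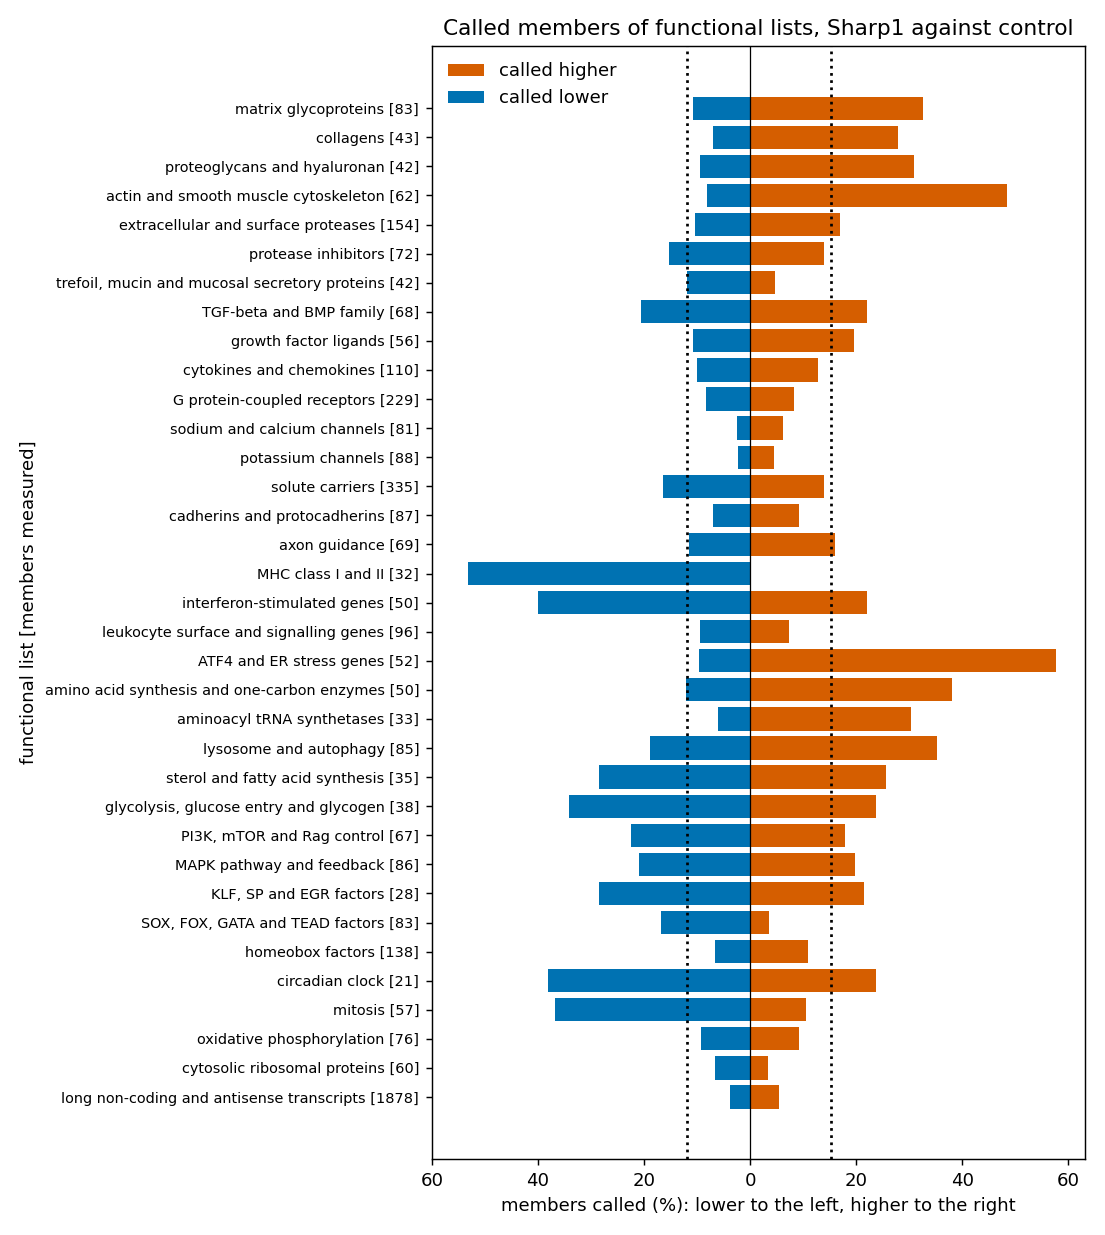
Share of measured members called higher (right, orange) and lower (left, blue) in Sharp1 cells for 35 functional lists (horizontal axis, percent of members), with the number of members in brackets. Dotted lines mark the shares of all 19775 genes, 15.3% higher and 11.8% lower. Actin, amino acid enzyme and ATF4 genes were called higher more often than lower, MHC and mitosis genes lower more often than higher, and the bars of the sodium and calcium channel, potassium channel and cytosolic ribosomal protein lists are short on both sides.

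Ligands and receptors of the TGF-beta and BMP family included some of the largest rises. Of 68 members, 15 rose and 14 fell (42.6% called against 27.2% of all genes), 7 and 2 of them by at least 2-fold. Among all genes, 0.713% rose and 0.971% fell by at least 2-fold. The activin subunits separated, since INHBE and INHBA rose by 2.71 and 2.00 while INHBB fell by 1.66. INHBA read 5.93, 5.81, 5.80 and 6.06 in control and 7.93, 7.74, 8.10 and 7.83 in Sharp1 arrays, and INHBB 9.80, 9.67, 9.66 and 9.69 against 8.09, 7.99, 8.01 and 8.08. Follistatin, FST, the secreted activin antagonist, rose by 1.02. All 4 ID genes, inhibitors of helix-loop-helix factors and known BMP targets, rose, ID3 by 2.25, ID4 by 1.51, ID1 by 1.15 and ID2 by 0.85. SMAD9, which transmits BMP signals, rose by 1.39, while the BMP antagonist NOG and the ligand BMP2 fell by 0.68 and 0.57. GDF15, a stress-induced cytokine, fell by 1.57 (-0.13 on its more specific probe set).

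Among other ligands, of 56 growth factor ligands, 11 rose and 6 fell (30.4%), with the KIT ligand KITLG at 0.99 and PDGFA at 0.83, and TGFA and EREG, which activate the EGF receptor, at -1.05 and -0.77. Of 58 Wnt pathway genes, 7 rose and 10 fell (29.3%), among them WNT5A (1.23) and DKK3 (-1.10). Of 33 Notch pathway genes, 3 rose and 7 fell (30.3%), with HES1 at -2.33 and LFNG at -0.93. On more specific probe sets DKK3 differed by -0.01 and HES1 by -0.08. Of 110 cytokines and chemokines, 14 rose and 11 fell (22.7%), led by TNFSF15 (1.84), CXCL3 (1.12) and IL24 (-2.13). KISS1, the precursor of kisspeptin and known as a metastasis suppressor, read 10.56, 10.65, 10.52 and 10.63 in control and 12.52, 12.56, 12.65 and 12.60 in Sharp1 arrays, a 3.97-fold rise to one of the brighter levels (limma adjusted p = 1.84e-21). In shHIF cells KISS1 differed by 0.21 from control.

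Of 229 G protein-coupled receptors, 19 rose and 19 fell (16.6%), and the median control level of the list was 5.02. F2RL2, a thrombin-activated receptor, rose by 2.05, and ADGRG1, an adhesion receptor, read 10.17, 10.10, 10.13 and 10.36 in control and 8.12, 8.15, 8.21 and 8.28 in Sharp1 arrays. Of 88 G protein, RGS and cyclic nucleotide genes, 21 rose and 8 fell (33%), with RGS4, which shortens Gq and Gi signals, at 2.31. Of 46 receptor tyrosine kinases, 10 rose and 6 fell (34.8%), with EPHA5 at 1.38 and MERTK at -1.11 (-0.01 on its more specific probe set).

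Prostaglandin enzymes changed in both directions. PTGS2, the inducible cyclooxygenase, read 5.37, 5.48, 5.06 and 5.49 in control and 8.46, 8.39, 8.58 and 8.46 in Sharp1 arrays. PTGES, the synthase that turns its product into prostaglandin E2, went from 8.18, 8.26, 8.35 and 8.46 to 6.75, 6.71, 6.88 and 6.85, and AKR1C3, a prostaglandin F synthase, fell by 1.84. HPGD, which inactivates prostaglandins, fell by 0.34 and PTGS1 by 0.42. PTGS1 turned to 0.16 on its more specific probe set. Of 27 eicosanoid genes in all, 4 rose and 7 fell (40.7%).

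**Figure D5:**
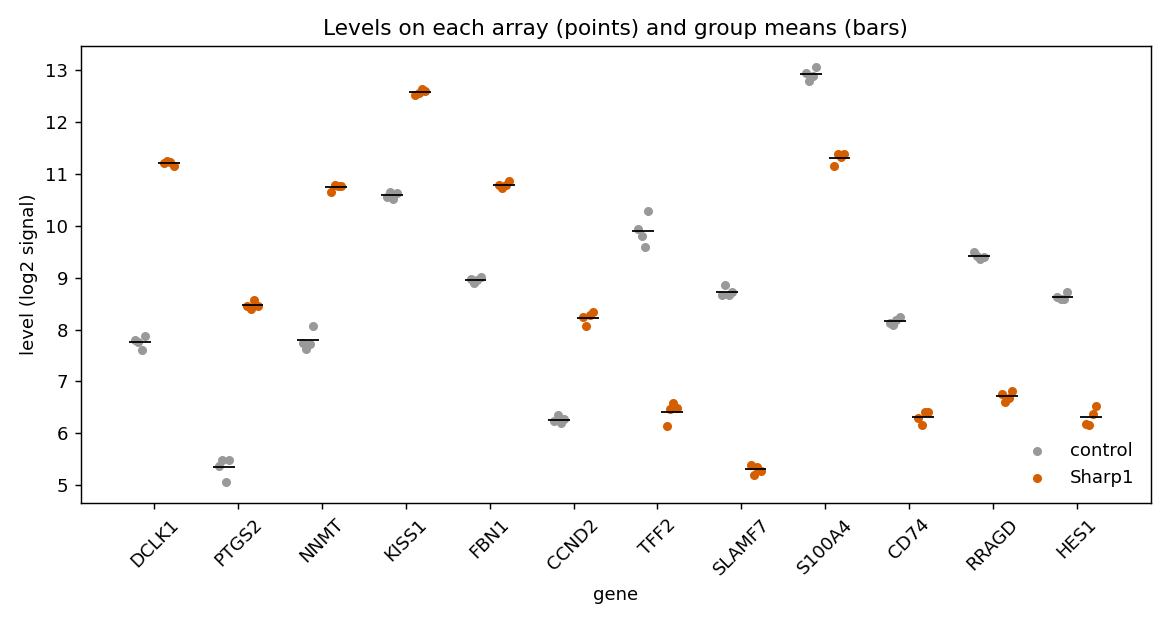
Log2 signal (vertical axis) of 12 genes on each of the 4 control (grey) and 4 Sharp1 (orange) arrays, 1 point an array, with a bar at the group mean. The 12 were picked among the genes changed at least 2-fold, none of which overlapped between groups. The points of a group lie close together beside the distance between groups.

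Ion channel lists differed in how many members were called, and all were dim. Median control levels were 5.10 for sodium and calcium, 4.75 for potassium and 5.83 for chloride channels, beside 6.58 for all genes. Of 81 sodium and calcium channel genes, 5 rose and 2 fell (8.64%), and of 88 potassium channel genes, 4 rose and 2 fell (6.82%), whereas of 37 chloride channel genes 5 rose and 7 fell (32.4%), beside 27.2% of all genes. SCN9A, a voltage-gated sodium channel, rose by 2.14, RYR2, a calcium release channel, by 1.68, and CACNA2D1, an auxiliary subunit of calcium channels, by 1.34. The first 2 started dim, with SCN9A at 4.82 and RYR2 at 4.29 in control. Neuronal genes as a list were called in 25.9% of cases, 9 higher and 6 lower of 58, led by DCLK1 at 3.45, with TENM2 at 2.26 and CNTN1 at 2.19. The synaptic adhesion gene NLGN1 fell by 1.22. DCLK1 read 7.80, 7.77, 7.61 and 7.88 in control and 11.22, 11.24, 11.23 and 11.16 in Sharp1 arrays, and all 4 of its probe sets were called higher.

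Solute carriers numbered 47 higher and 55 lower of 335, 30.4% called. The organic anion carrier SLCO4A1 read 10.76, 10.68, 10.80 and 10.90 in control and 7.40, 7.57, 7.53 and 7.60 in Sharp1 arrays, and its antisense transcript SLCO4A1-AS1, whose promoter holds the E-box shown above, fell by 2.88. SLC37A2, SLC38A4 and SLC16A7, carriers of sugar phosphates, amino acids and monocarboxylates, fell by 2.18, 2.11 and 2.07. No solute carrier but SLC1A4, a carrier of alanine, serine and cysteine, rose by 2-fold (1.19, and 0.09 on its more specific probe set). Of 30 amino acid carriers, 8 rose and 8 fell (53.3%), and the cystine carrier SLC7A11 rose by 0.76. Of 42 ABC transporters, 4 rose and 8 fell (28.6%), with ABCG2, a drug exporter, at -1.25.

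Adhesion and guidance lists were called at shares between 16.1% and 27.6%, beside 27.2% of all genes. Of 87 cadherins and protocadherins, 8 rose and 6 fell (16.1%), with PCDH7 at 1.51 and DSC2 at -1.11. Of 29 integrins, 4 rose and 4 fell (27.6%), and ITGB2, the beta chain known from leukocytes, fell by 2.19. Of 43 tight and gap junction genes, 2 rose and 8 fell (23.3%), with CLDN1 at 1.92 and CLDN4 at -1.22. Of 69 axon guidance genes, 11 rose and 8 fell (27.5%), and 4 rose by at least 2-fold, among them NTN4 (1.31) and PLXNA2 (1.18).

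Antigen presentation genes that were called all fell. Of 32 measured MHC class I and II genes, 17 fell and 0 rose at the limma threshold (53.1% called against 27.2% of all genes). Of all genes, 11.8% were called lower. The median difference of the list was -0.16. At an unadjusted p under 0.05 in limma the counts were 21 lower and 0 higher, and all genes were not counted at that threshold. CD74, the invariant chain of class II, read 8.12, 8.08, 8.18 and 8.25 in control and 6.29, 6.16, 6.40 and 6.42 in Sharp1 arrays, HLA-DRA fell by 1.79 and HLA-DPA1 by 1.32. HLA-DPA1 went from 4.89 to 3.57, both under the median probe set (5.41). HLA-DMA and HLA-DMB, which load class II peptides, fell by 0.78 and 0.40. Of the immunoproteasome subunits, PSMB9, PSMB8 and PSMB10 fell by 1.13, 0.43 and 0.38. In class I, HLA-C, HLA-B and B2M fell by 0.18, 0.15 and 0.14, and HLA-E differed by 0.04. On more specific probe sets B2M differed by -0.29 (not called) and HLA-E by 0.19 (called). In shHIF cells CD74, HLA-DRA, HLA-DPA1 and PSMB9 rose by 0.70, 1.34, 1.65 and 0.53. HLA genes are close relatives, so the values of single members are uncertain.

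Interferon-stimulated genes were split, with 20 lower and 11 higher of 50 and 62.0% called, but no member passed 2-fold. OAS2, an antiviral synthetase, and IFIT2 fell by 0.93 and 0.83, and IFI27 and EPSTI1 rose by 0.58 and 0.55. The transcription factors IRF1 and IRF9 differed in sign, at -0.27 and 0.42. Of 96 leukocyte genes, 7 rose and 9 fell (16.7%). SLAMF7 read 8.66, 8.86, 8.66 and 8.73 in control and 5.39, 5.20, 5.35 and 5.27 in Sharp1 arrays, and LAPTM5, a lysosomal protein of blood cells, fell by 2.18, while the toll-like receptor TLR4 rose by 0.99.

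Among stress response genes, of 52 ATF4 and ER stress genes, 30 rose and 5 fell (67.3% called), with a median difference of 0.20. INHBE, JDP2 and NUPR1 rose by 2.71, 1.47 and 1.27, and CTH, which makes cysteine, and CHAC1, which breaks glutathione, by 1.08 and 0.78. ASNS, PSAT1 and PHGDH, of asparagine and serine synthesis, rose by 0.38, 0.33 and 0.28, and ATF4 itself by 0.17. ASNS turned to -0.07 on its more specific probe set. The ER chaperones HSP90B1 and HSPA5 fell by 0.43 and 0.17, and TRIB3 and DDIT4 by 0.44 and 0.42. Of 50 amino acid and one-carbon enzymes, 19 rose and 6 fell (50%), while the median difference of the list was -0.02. ASS1 and ASL, the pair that makes arginine, were at 0.75 and 0.55. Of 33 tRNA synthetase genes, 10 rose and 2 fell (36.4%), by at most 0.48.

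Among lipid genes, of 35 genes of sterol and fatty acid synthesis, 9 rose and 10 fell (54.3%), and all 4 changes past 2-fold were falls. INSIG1 read 10.11, 10.17, 9.96 and 9.98 in control and 8.59, 8.66, 8.56 and 8.78 in Sharp1 arrays, and ACSL5, ME1 and ELOVL7, which activate fatty acids, supply NADPH and lengthen chains, fell by 1.19, 1.15 and 1.01. In shHIF cells INSIG1 fell by 1.45, and the direct difference between Sharp1 and shHIF cells was 0.05 (SE 0.06, limma adjusted p = 0.586). Of 85 lysosome and autophagy genes, 30 rose and 16 fell (54.1%), with NPC1, a cholesterol exporter of lysosomes, at 0.76 and CTSD and HEXA, lysosomal hydrolases, at -1.33 and -0.84. Of 173 redox and xenobiotic enzymes, 30 rose and 31 fell (35.3%), among them monoamine oxidase MAOA (1.5). NNMT, which methylates nicotinamide, read 7.74, 7.63, 7.73 and 8.06 in control and 10.65, 10.79, 10.78 and 10.76 in Sharp1 arrays.

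Of 38 glycolysis and glycogen genes, 13 fell and 9 rose (57.9% called against 27.2% of all genes), none by 2-fold. The list was bright, with a median control level of 10.28 beside 6.58 for all genes. PDK3 and GBE1, a brake on pyruvate oxidation and the glycogen branching enzyme, fell by 0.80 and 0.73, and the glucose transporter SLC2A3 rose by 0.97. Of 42 nucleotide synthesis genes, 13 rose and 13 fell (61.9%), with the salvage enzymes UPP1, CDA and DCK at -1.25, -0.87 and -0.62.

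In nutrient and kinase signalling, of 67 PI3K and mTOR genes, 12 rose and 15 fell (40.3%). RRAGD and RRAGC, GTPases that bring mTORC1 to lysosomes, fell by 2.71 and 0.65, and INPP4B, a phosphoinositide phosphatase, by 1.80. RRAGD read 9.49, 9.42, 9.36 and 9.41 in control and 6.75, 6.60, 6.68 and 6.82 in Sharp1 arrays, and in shHIF cells it rose by 0.46. Of 86 MAPK genes, 17 rose and 18 fell (40.7%), with the phosphatases DUSP10 and DUSP1 at 1.33 and 0.87 and DUSP4 at -0.95. Of 43 apoptosis regulators, 14 rose and 6 fell (46.5%). CASP4, CFLAR and BIRC2 were at 1.29, 0.92 and 0.68, and BNIP3, BCL2L11 and BAX at -1.75, -0.87 and -0.66. CFLAR and BIRC2 are known to hold back caspases, BCL2L11 and BAX to promote death through mitochondria, and CASP4 to act in inflammation.

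Among transcription factors, of 28 KLF, SP and EGR factors, 8 fell and 6 rose (50% called against 27.2% of all genes). KLF10, KLF9 and KLF4 were at -1.44, -1.38 and -1.17 and EGR1 at 1.18. Of 83 SOX, FOX, GATA and TEAD factors, 14 fell and 3 rose (20.5%), led by the falls of FOXQ1 and FOXP2 (-1.48). FOXQ1 read 11.67, 11.62, 11.63 and 11.61 in control and 9.88, 10.01, 9.94 and 10.15 in Sharp1 arrays. Of 46 bZIP factors, 16 rose and 10 fell (56.5%), with JDP2 at 1.47 and CREB5 at 1.01. Of 39 nuclear receptors, 8 rose and 6 fell (35.9%), with the retinoic acid receptor RARB at 1.49 and PPARG at -0.72. Homeobox factors were called in 17.4% of cases, with POU3F2 at 1.42. Of 72 helix-loop-helix and ID genes, 14 rose and 13 fell (37.5%), among them MXI1 at -1.86. Clock genes numbered 5 higher and 8 lower of 21 (61.9%). Both this list and the helix-loop-helix list count BHLHE41, the overexpressed gene, as a fall, through its probe set brightest in control cells. Of the clock genes, PER2, PER3, DBP and NR1D2 fell by 0.57, 0.52, 0.33 and 0.21, and BMAL1 and CRY1 rose by 0.24 and 0.33. The largest rise in the clock list was 0.73. DBP turned to 0.26 on its more specific probe set. Of 466 proteins named ZNF, 61 rose and 34 fell (20.4%).

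Genes of basic cell growth were read as a further set of lists. Of 60 cytosolic ribosomal proteins, 2 rose and 4 fell (10.0%), and the median size of the difference was 0.02, against 0.10 for all genes. Of 76 oxidative phosphorylation genes, 7 rose and 7 fell (18.4%), with a median size of 0.05. Mitosis genes numbered 21 lower and 6 higher of 57 (47.4%), but the largest fall, of SGO2, was 0.38 and the median difference was -0.06. Of 46 DNA replication genes, 9 rose and 11 fell (43.5%). The median control level was 10.90 for mitosis and 9.99 for replication genes, beside 6.58 for all genes. Among 66 cyclins, CDKs and inhibitors, 14 rose and 15 fell (43.9%), and CCND2, a cyclin of G1, was the largest change. CCND2 went from 6.23, 6.35, 6.20 and 6.27 in control to 8.24, 8.07, 8.27 and 8.33 in Sharp1 arrays. The inhibitor CDKN1C fell by 0.97. Of 42 proteasome subunits, 8 rose and 9 fell (40.5%), and PSMB9 alone passed 2-fold.

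Non-coding transcripts in the annotation were mostly dim, with a median control level of 4.20 among 1878 long non-coding and antisense genes, of which 104 rose and 70 fell (9.27%). Beside SLCO4A1-AS1, ITGB2-AS1, the antisense partner of ITGB2, fell by 1.21 and FUT8-AS1 by 1.77. Outside that list, UCA1, a long non-coding RNA known from carcinomas, rose by 1.90.

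Markers of the cell line and of other cells were read in both groups. Of 20 basal B breast cancer markers, 7 rose and 6 fell (65% called against 27.2% of all genes). Their median control level was 11.38, beside 6.58 for all genes. CAV1 read 13.2 in control, with a difference of 0.08 that was not called, and VIM rose by 0.08. TGFBI and SNAI2, a repressor of epithelial genes, fell by 2.34 and 1.39. The largest rise in this list was 0.92, and its median difference was 0.08. Of 20 luminal markers, 6 fell and 4 rose (50%). At least 2-fold falls were seen for 4, AGR2 by 3.01, TFF1 by 2.61, TFF3 by 1.71 and CLDN4 by 1.22. The mean level of the 20, with these 4 included, was 7.66 to 7.78 on control and 7.23 to 7.27 on Sharp1 arrays. These ranges do not overlap. The median difference of the list was only -0.05, and its largest rise was 0.52. EPCAM and SPDEF fell by 0.62 and 0.88, and the defining ESR1, PGR and CDH1 differed by 0.02, 0.03 and -0.09 and were not called. Of 12 leukocyte markers, 3 fell and 1 rose (33.3%), and apart from LAPTM5 the brightest was at 6.36 in control. RMA values do not fall to 0, so the mean level of the 12 was taken, which was 5.44 to 5.56 on control and 5.11 to 5.24 on Sharp1 arrays. That mean includes 2 falls of at least 2-fold, LAPTM5 among them (-2.18), and the median difference of the list was -0.11. Of 14 fibroblast markers, 3 rose and 0 fell (21.4% called, and 1 lower at an unadjusted p under 0.05 in limma), at most by 0.54. COL1A2, DCN and LUM were at 4.46, 5.32 and 3.62 in control. Their mean level was 4.92 to 5.03 on control and 4.98 to 5.10 on Sharp1 arrays. Of 12 endothelial markers, 2 fell and 0 rose (16.7% called, and 0 higher at an unadjusted p under 0.05 in limma). Their part in the results above was not tested.

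Sharp1 cells were also set directly against shHIF cells. Of the 333 genes changed at least 2-fold against control, 139 of 141 rises and 189 of 192 falls also passed the direct test between Sharp1 and shHIF cells, a contrast that shares the Sharp1 arrays and in which 38.4% of all genes were called. ARMCX1, SLAMF7, HES1 and TGFBI, with large falls in Sharp1 cells, differed by 0.13, 0.15, 0.04 and 0.14 from control in shHIF cells (limma adjusted p = 0.0808, 0.102, 0.722 and 0.288). CCND2, NUPR1 and DMBT1 rose in shHIF cells as well, by 1.36, 1.01 and 1.06. For NUPR1 and DMBT1 the direct differences were 0.26 and 0.20 (SE 0.09 and 0.06, limma adjusted p = 0.0276 and 0.0150).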

How the data were processed

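Expression was measured on 12 arrays of 54675 probe sets. The deposited values are log2 signals, which per the submitters' processing notes came from RMA, and they were used as deposited. Of the probe sets, 41091 carried 1 gene symbol in the platform annotation, 1801 several and 11783 none. Each of 19775 genes was represented by its brightest probe set, by the mean of the 12 arrays. Group means were fitted over all 12 arrays with limma 3.58.1 (R 4.3.3, eBayes with trend), with Benjamini-Hochberg adjustment over all genes and a threshold of 0.05, and the procedure was tested on simulated data. BHLHE41 and BHLHE40 were also read per probe set. Promoters came from RefSeq (GRCh38.p14). The members and the functional lists were chosen with earlier results of these data known, and some lists were trimmed of unlike genes after values were seen. Named genes are BHLHE41, BHLHE40, up to 3 called rises and 3 called falls per list with arrays that do not overlap, the 40 largest rises and 40 largest falls, and the genes of the printed promoters. Others, among them FN1, MATN2, the marker genes and the members of the neighbour runs, were chosen after their values were seen. The same letters in 2 groups did not pair arrays. Alternatives changed 1 choice at a time.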

Additional observations from a re-analysis of the deposited data

Results flagged for a closer look

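In 21 of 466 groups of 4 arrays looked at (4.51%), 1 array lay far from the other 3 for its spread. Chance flags about 1 group in 20. The cause was not tested for any of them.

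Sharp1 array B had a ribosomal RNA control signal of 10.72, beside 11.48 to 11.61 on the other Sharp1 arrays. On this array AKAP12 (7.62), BHLHE40 (8.47) and NLGN1 (5.06) were the lowest of their group. Control array D had a ribosomal RNA control signal of 11.34, beside 11.53 to 11.56 on the other control arrays. On it CDK4 (11.66), GDF15 (7.54) and UPP1 (10.04) were high and LUM (3.50) was low.

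On control array B, BMP2 (5.92) and WNT5A (7.70) were high, and COL11A1 (4.26) and FSCN1 (7.88) were low. On control array C, GBE1 (11.62) and PER2 (7.17) were low, and on control array A so was PSAT1 (11.94). On Sharp1 array A, ELL2 (11.08) and NTN4 (10.29) were high and IFI27 (7.58) was low. On Sharp1 array D, SCN9A (6.82) and SERPINB7 (6.96) were low. All values are log2 levels.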

How the results depend on the processing

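Leaving out 1 array at a time, limma called 4770 to 5211 genes, 2590 to 3053 higher and 2085 to 2235 lower, and at least 2-fold 136 to 147 higher and 186 to 202 lower. Without Sharp1 array B, 147 genes rose and 194 fell by at least 2-fold. The replicate letters do not pair the arrays (correlations of deviations between -0.18 and 0.024), and with the letter as a replicate block 5186 genes were called. The mean over all probe sets of a gene left 124 falls of at least 2-fold, and BHLHE41 then read 1.19. Without probe sets ending in _x_at or _s_at, 3987 genes were called, and ASNS read -0.07, DBP 0.26, MATN2 -0.09, PTGS1 0.16 and TPM2 -0.10, each turned in sign. Under that setting 26 of 86 list counts of 10 or more moved by over 1.5 times, against at most 6 under any other, and for 48 of 227 named genes no probe set was left. DBP, HPGD and VIM lost their call under 5 or more settings. The CACGTG share of 2-fold falls was 18.6% in the 250 bases before the start, 24.1% with any listed promoter and 21.1% without Sharp1 array B. The last pair of alternatives was chosen after seeing the data. Among all tested genes with a promoter the share was 7.83% in the 250 bases and 10.9% with any listed promoter. Depth is not given by arrays, and 4 arrays a group limit the precision.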
